A study of Mus musculus with 12 samples.

Results

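Scavenger receptors are surface proteins with which macrophages bind and take up modified lipoproteins, oxidized lipids, dying cells, microbes and inhaled particles. They are grouped by structure rather than descent: class A receptors are trimers with a collagen-like stem, class B receptors cross the membrane at both ends, and the remaining classes carry lectin-like, mucin-like, cysteine-rich or fasciclin domains. In the lung, Msr1 and Marco are the class A receptors best known on alveolar macrophages, where they are known to bind particles and oxidized lipids, and Cd36 takes up fatty acids and oxidized lipoproteins.

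The scavenger receptor genes described here are Msr1, Marco, Colec12, Cd36, Scarb1, Scarb2, Cd68, Olr1, Stab1 and Cd163. They were chosen by symbol from the deposited expression table, and all 10 of the 10 symbols were found among its 55291 genes. The ozone differences of the same mice were already known when the genes were chosen, so those differences are given as a description and nothing rests on them. The cells were alveolar macrophages, which live in the airspaces and take up what is inhaled, flow-sorted from lungs of female C57BL6/NJ mice aged 8 to 11 weeks. The 6 mice of the ozone group had breathed 0.8 ppm ozone, and the 6 mice of the filtered-air group filtered air, for 4 h a day on 4 days in a row, and lungs were taken 3 days later. All mice were of the same strain and sex, and each of the 2 flow-sort batches held 3 mice of each group. Values are variance-stabilized log2 expression, set so that the filtered-air group has a mean of 0 for each gene. A difference of 1 is a doubling for a gene with many reads and understates the change of a gene with few. Since this removes how abundant a gene is, levels cannot be ranked between genes. In RNA from sorted cells, a change in the share of cells that carry a transcript and a change in its amount per cell cannot be told apart.

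RNA integrity numbers ranged from 8.9 to 9.7 in filtered air and from 9.2 to 9.7 after ozone. Total read numbers are unknown. As a measure of depth, between 20.8% and 22.5% of the 25444 varying genes lay at the lowest value shared within a batch, which marks genes without reads, in filtered-air mice, and between 19.7% and 23.5% in ozone mice. None of the 10 receptor genes had a mouse at that value. All 14 alveolar macrophage markers listed, among them Siglecf, Itgax and Ear2, were likewise above it in all 12 mice. Of 60 markers of 9 other cell types, 57 were kept, and 56 lay above that value in all 12 mice. A lone mouse without reads in its batch would not be marked by this rule. In limma 0 of these 57 markers had an adjusted p under 0.05. Unadjusted, 10 had a p under 0.05, against 3283 of the 19633 genes kept (16.7%), so the markers pooled were close to the background. The mean level of each of the 9 lists overlapped between the groups, and 3 lists had an ozone mean above 0. The B cell list had the widest median difference, -0.20. All 5 of its markers were lower in the ozone mean, and 3 had an unadjusted p under 0.05 in limma. Filtered-air mouse 4 stood apart: it had the lowest RNA integrity number, 8.9, the highest level of its group in 6 of the 9 lists and the next highest in the other 3. Values without it are given beside the results they bear on for Msr1, Marco, Colec12, Thbs1, Cd14 and Jun.

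Upstream sequences of Marco and Cd36 are shown because these genes, with Msr1, carry most of what follows; of the 10 receptor genes, 7 have an entry in the RefSeq table of promoters (GRCm38.p6), and Msr1, Scarb1 and Colec12 do not. Marco lies on the minus strand of chromosome 1 from 120474538 to 120505024, and the window is chr1:120505025-120505274, the 250 bases before its start. Cd36 lies on the minus strand of chromosome 5 from 17781690 to 17888801 (GENCODE M21), and its window is chr5:17835897-17836146, before a start that lies 52905 bases inside the annotated gene. Both are written 5′ to 3′ along the gene, in lower case, with matches to a searched motif in capitals.
Marco: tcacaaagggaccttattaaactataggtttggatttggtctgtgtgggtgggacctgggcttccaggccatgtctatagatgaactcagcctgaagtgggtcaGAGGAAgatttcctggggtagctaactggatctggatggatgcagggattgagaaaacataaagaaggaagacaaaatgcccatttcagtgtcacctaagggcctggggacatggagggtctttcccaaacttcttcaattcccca
Cd36: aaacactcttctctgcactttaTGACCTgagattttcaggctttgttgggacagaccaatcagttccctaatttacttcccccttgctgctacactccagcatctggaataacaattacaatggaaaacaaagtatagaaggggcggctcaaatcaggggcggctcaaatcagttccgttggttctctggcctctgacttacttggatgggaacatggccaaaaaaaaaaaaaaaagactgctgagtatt
Motifs were searched on both strands: GAGGAA (core of PU.1, the macrophage lineage factor), TGANTCA (AP-1), TTGCNNAA (C/EBP), TGACNNNGC (antioxidant response core), AGGTCA (nuclear receptor half-site), CACGTG (E-box) and TATAAA (the core promoter box). The Marco window held a match to the PU.1 core, at positions -146 to -141 from the start, which 23.3% of 32851 such windows also held. The Cd36 window held a match to the nuclear receptor half-site, at positions -228 to -223, present in 14% of windows. No other motif of the 7 was matched in either window. A match describes the letters only.

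Among the 10 receptor genes, Msr1 rose and Cd36 fell after ozone, and the other 8 were not called. A gene is called where its adjusted p was under 0.05 in limma's fit of all 19633 genes kept, with the Benjamini-Hochberg method. By that rule 4.25% of all genes were called, 473 higher and 361 lower. The calls are labels for the reader, since these genes were picked with the contrast known. The 6 ozone values and the 6 filtered-air values did not overlap in the same 2 genes, Msr1 and Cd36, against 3.53% of all genes. The median difference over the 10 genes was 0.057, and over all genes kept -0.0033.

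**Figure D1:**
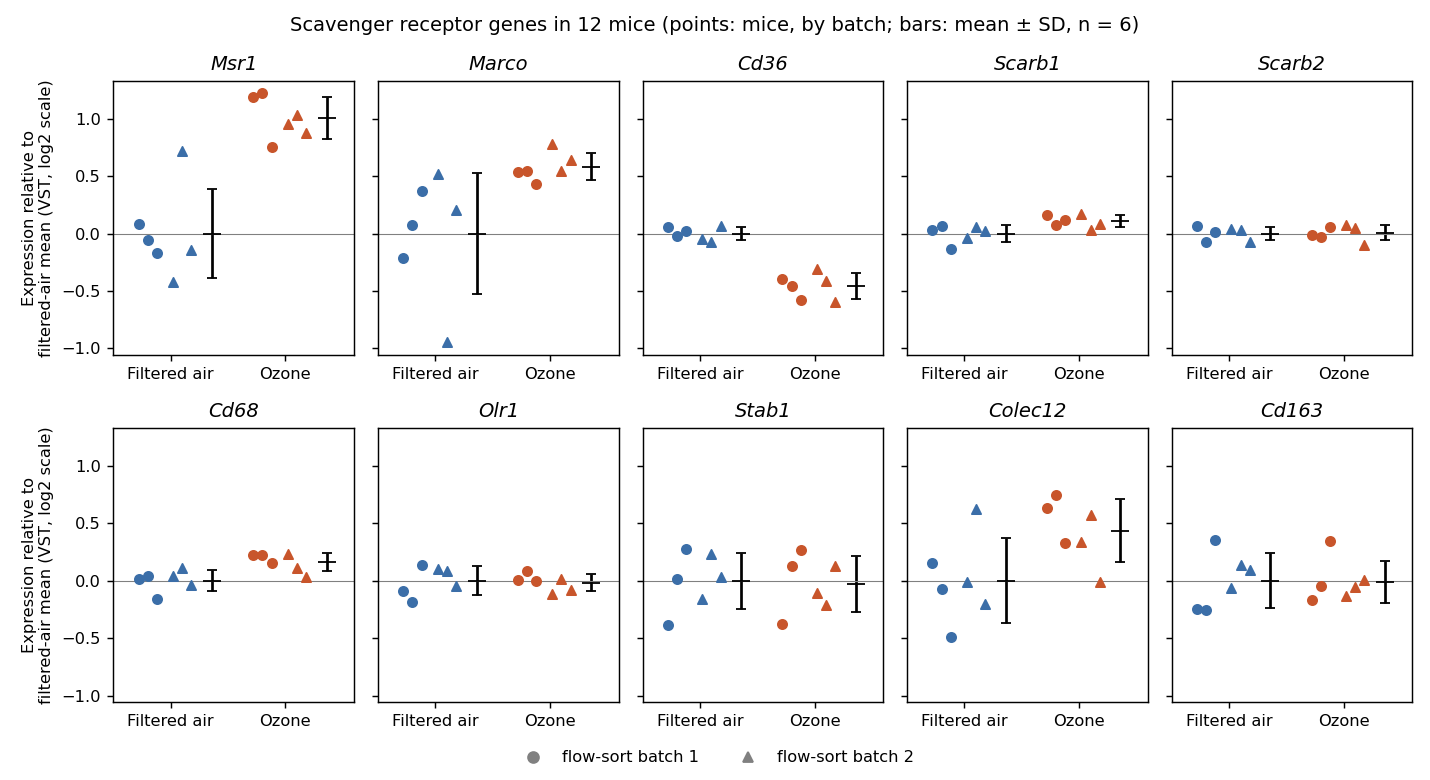
Expression of each receptor gene in each mouse (y axis, variance-stabilized log2 scale relative to the filtered-air mean), with filtered air in blue, ozone in orange, circles for flow-sort batch 1, triangles for batch 2, and mean ± SD (n = 6) in black. Msr1 and Cd36 have separate groups, while Marco and Colec12 spread widely in filtered air.

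Among the class A receptors, Msr1 rose, and Marco and Colec12 were not called. Msr1, the founding class A receptor (SR-A1), which binds modified lipoproteins, bacteria and particles, is a protein-coding gene on chromosome 8, from 39581685 to 39642673 on the minus strand (GENCODE M21). Its lowest, median and highest values were -0.42, -0.10 and 0.71 in filtered air and 0.75, 0.99 and 1.22 after ozone. All ozone mice lay above all filtered-air mice, but the gap between filtered-air mouse 4 and the lowest ozone mouse was narrow. Msr1 rose by 1.00 (SE 0.149), to 1.00 ± 0.181 (SD, n = 6) against 0 ± 0.387 (SD, n = 6). Without filtered-air mouse 4 the difference was 1.16. It was the largest rise among the 19633 genes. The call was lost when limma was given a variance trend and in flow-sort batch 2 alone, with differences of 1.00 and 0.91. The trend relates variance to a gene's mean over all mice. Since every filtered-air mean is 0, that mean follows the ozone difference and not abundance. This setting therefore cannot tell how a trend with abundance would bear on the call.

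Marco, the collagenous class A receptor that alveolar macrophages use for unopsonized particles and bacteria, was higher in the ozone mean but was not called. Its values were -0.95, 0.14 and 0.52 (lowest, median, highest) in filtered air and 0.43, 0.55 and 0.78 after ozone. Of the 6 ozone mice, 5 exceeded every filtered-air mouse, and the ozone values lay close together while those in filtered air did not. The difference was 0.58 (SE 0.187), with a 95% interval from 0.18 to 0.98. The lowest value, -0.95, was that of filtered-air mouse 4, the mouse with the highest Msr1. Without it the difference was smaller, 0.37, and the gene was called, with a filtered-air SD of 0.283 in place of 0.528. It was also called, at 0.49, with the RNA integrity number as a covariate.

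Colec12, a class A receptor with a C-type lectin head (also known as SRCL), was higher in the ozone mean and not called. Its lowest, median and highest values were -0.49, -0.043 and 0.62 in filtered air and -0.0090, 0.45 and 0.75 after ozone. Of the ozone mice, 5 were above the filtered-air mean, but only 2 exceeded filtered-air mouse 4, so the groups overlapped. The difference was 0.43 (SE 0.160, 95% interval 0.091 to 0.78). It was 0.57, and called, without filtered-air mouse 4.

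The class B receptors, which share a fold with a large extracellular loop, had 1 called gene, Cd36, which fell. Cd36, which takes up long-chain fatty acids and oxidized lipoproteins, lay between -0.076 and 0.068 in filtered air, with a median of -0.00059, and between -0.60 and -0.31 after ozone, with a median of -0.43. All ozone mice were far below all filtered-air mice, and filtered-air mouse 4, at -0.076, was near the others of its group. Cd36 fell by 0.46 (SE 0.0513), to -0.46 ± 0.111 (SD, n = 6) against 0 ± 0.0566 (SD, n = 6). It ranked 42nd among the falls of all genes kept. Leaving out any single mouse gave differences from -0.49 to -0.43, all called. In flow-sort batch 2 alone the call was lost, with a difference of -0.42.

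Scarb1 (SR-BI), the receptor for high-density lipoprotein, lay between -0.14 and 0.068 in filtered air (median 0.026) and between 0.032 and 0.17 after ozone (median 0.10). All ozone mice were above the filtered-air mean and 5 exceeded every filtered-air mouse, yet the difference, 0.11 (SE 0.0428), was not called. Scarb2 (LIMP-2), a lysosomal membrane protein that sorts an enzyme to lysosomes, lay between -0.075 and 0.063 in filtered air (median 0.022) and between -0.096 and 0.075 after ozone (median 0.016). The groups overlapped, with 1 ozone mouse above and 1 below every filtered-air mouse, and the difference was 0.0065 (SE 0.0410), with a 95% interval from -0.081 to 0.094. Cd36, Scarb1 and Scarb2 all lie on chromosome 5.

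Cd68 (macrosialin), a mucin-like glycoprotein of late endosomes and lysosomes used as a macrophage marker, lay between -0.16 and 0.11 in filtered air (median 0.025) and between 0.034 and 0.23 after ozone (median 0.19). All ozone mice were above the filtered-air mean and 5 exceeded every filtered-air mouse. The difference of 0.16 (SE 0.0501, 95% interval 0.056 to 0.27) was not called with all mice and was called, at 0.19, without ozone mouse 6, the lowest of its group. Olr1 (LOX-1), the lectin-like receptor for oxidized low-density lipoprotein, lay between -0.19 and 0.14 in filtered air (median 0.019) and between -0.12 and 0.087 after ozone (median 0.00058). The ozone values fell within the filtered-air range, with a difference of -0.017 (SE 0.0579).

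Stab1 (stabilin-1), a fasciclin-domain receptor that clears altered matrix proteins and dying cells, lay between -0.38 and 0.27 in filtered air (median 0.022) and between -0.38 and 0.26 after ozone (median 0.012). Cd163, the cysteine-rich receptor for haptoglobin-bound hemoglobin, lay between -0.26 and 0.35 in filtered air (median 0.011) and between -0.16 and 0.34 after ozone (median -0.051). Both genes differed widely between mice of a group and little between the groups. The difference was -0.028 (SE 0.121, 95% interval -0.29 to 0.23) in Stab1 and -0.0085 (SE 0.106, 95% interval -0.24 to 0.22) in Cd163. These intervals would hold differences of the size seen in Cd68, in either direction.

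**Figure D2:**
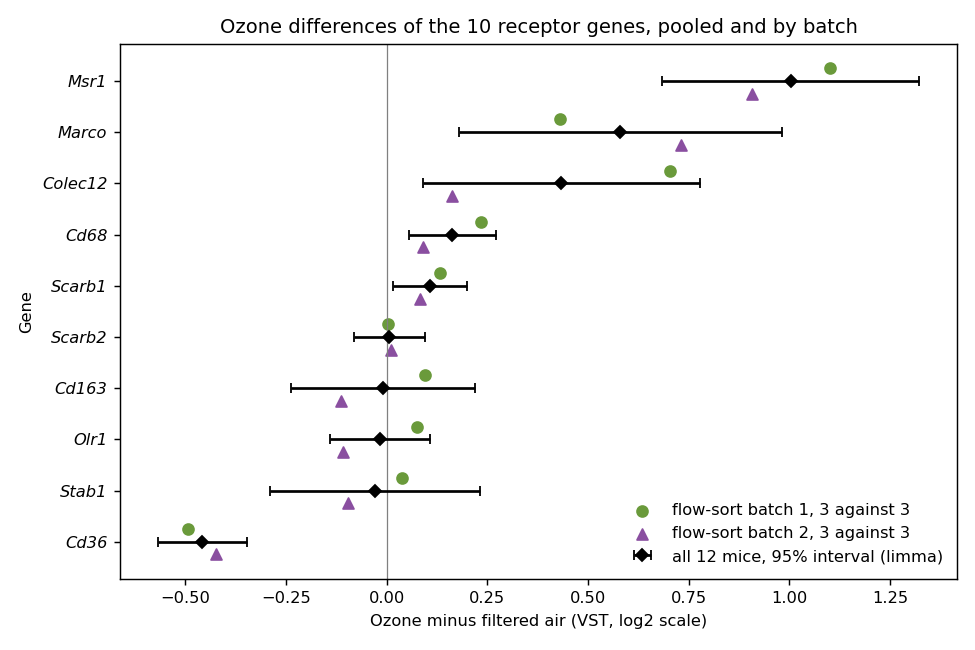
Ozone minus filtered air for each receptor gene (x axis, variance-stabilized log2 scale): black diamonds with 95% intervals use all 12 mice, green circles flow-sort batch 1 and purple triangles batch 2, each with 3 mice against 3. Msr1 and Cd36 lie far from 0 in both batches, and Cd163, Olr1 and Stab1 have batches on opposite sides of 0.

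The differences within each flow-sort batch make up the same contrast that was known when the genes were chosen, so they are a description and no independent repeat. Both batches gave the same sign in 7 of the 10 genes, against 63.7% of all genes kept, and opposite signs in 3 (Olr1, Stab1 and Cd163). Msr1 differed by 1.10 in batch 1 and 0.91 in batch 2, Cd36 by -0.49 and -0.42, and Marco by 0.43 and 0.73. Colec12 showed the widest gap, with 0.70 in batch 1 and 0.16 in batch 2. That gap, -0.54 (SE 0.299), had an unadjusted p of 0.0935 in limma's interaction test of all genes, the smallest of the 10 receptor genes. For all 10 the adjusted p was 1.00. Over all genes 0 were called in that test, which is 0%, and 510 had an unadjusted p under 0.05.

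The spread between mice also differed among the receptors. In filtered air, 5 of the 10 genes (Msr1, Marco, Colec12, Stab1 and Cd163) were among the 5% of all genes with the largest SD. After ozone the same held for Colec12, Stab1, Cd163 and Msr1, where 0.810%, 1.28%, 4.17% and 4.29% of genes had a larger SD, but not for Marco, with 17.6%. Marco had an SD of 0.528 in filtered air, the eighth largest of all genes kept, and 0.117 after ozone, a ratio of 4.50. Without filtered-air mouse 4 its SD in filtered air was 0.283 and the ratio 2.41. For Msr1 the ratio was 2.14 with that mouse and 1.02 without it. Cd36 had the opposite order, with an SD of 0.0566 in filtered air and 0.111 after ozone. Over all genes kept the median SD was 0.0745 in filtered air and 0.0759 after ozone. These spreads were compared as a description, with no test.

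Msr1 and Marco moved against each other from mouse to mouse in filtered air. The filtered-air mouse with the highest Msr1, at 0.71, had the lowest Marco, at -0.95, and the mouse with the lowest Msr1, at -0.42, had the highest Marco, at 0.52. The remaining 4 mice kept the same order, so the ranks were exactly reversed. Over the 6 filtered-air mice Pearson's r was -0.987 (two-sided exact permutation test, p = 0.00139, the smallest that 720 pairings allow) and Spearman's rho was -1 (exact permutation p = 0.00278). Without the 2 mice farthest from the median of Msr1, filtered-air mice 2 and 4, r was -0.982. Without filtered-air mouse 4 alone it was -0.947. This pair was singled out after the values had been seen, among 90 relations (45 pairs in each group). Adjusted over these 90 the permutation p was 0.125 for r and 0.25 for rho. These are the lowest values a lone pair can reach with 720 pairings, so the adjustment cannot decide on this pair. The pairings also crossed the flow-sort batches.

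After ozone the relation did not appear: over the 6 ozone mice r was 0.034 and rho 0.086 (exact permutation p = 0.949 and 0.919, adjusted 0.971 and 1). Without ozone mice 4 and 5, farthest from the median of Msr1, r was -0.626. The difference between the groups' correlations was not tested. The means of the 9 lists of other-cell markers ranged from 0.12 (fibroblast) to 0.35 (B cell) in filtered-air mouse 4 and from -0.25 (T and NK cell) to 0.10 (airway epithelium) in filtered-air mouse 2, the mice at the ends of the relation. The 14 alveolar macrophage markers had means of 0.011 and 0.075 in these mice. The part of other cells in the relation was not tested.

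**Figure D3:**
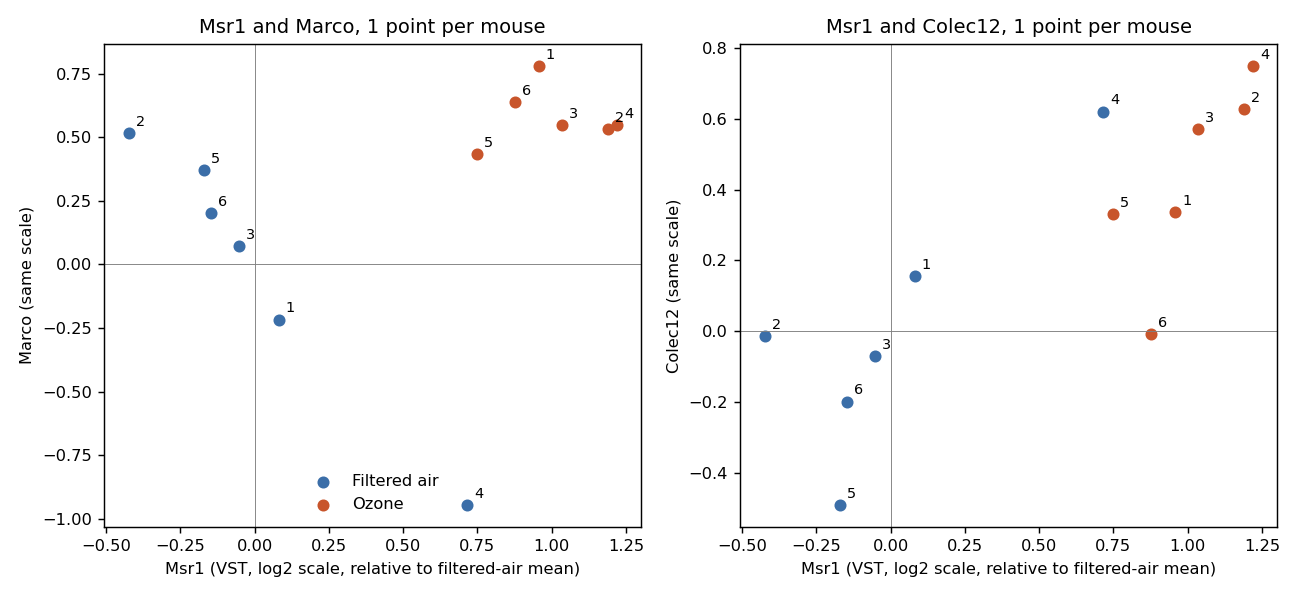
Each point is a mouse, labelled with its replicate number: Msr1 (x axis) against Marco (left) and Colec12 (right), all on the variance-stabilized log2 scale relative to the filtered-air mean, with filtered air in blue and ozone in orange. Filtered-air mice fall along a descending line for Marco (r = -0.987). The ozone mice lie to the right, at higher Msr1, and 5 of the 6 also lie above every filtered-air mouse in Marco.

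For Colec12 the relation with Msr1 had the opposite sign. Its r with Msr1 was 0.802 over the filtered-air mice (exact permutation p = 0.0778, rho 0.657, p = 0.175) and 0.787 over the ozone mice (exact permutation p = 0.0667, rho 0.943, p = 0.0167). Without the 2 mice farthest from the median of Msr1, r was 0.929 in filtered air and 0.893 after ozone. Without filtered-air mouse 4 alone it was 0.266, so the value changed widely with the mice left out. Stab1 and Cd163 went together in both groups, with r of 0.801 in filtered air (exact permutation p = 0.0569, rho 0.829, p = 0.0583) and 0.770 after ozone (exact permutation p = 0.0583, rho 0.886, p = 0.0333). Without the 2 mice farthest from the median of Stab1 these were 0.525 and 0.576. Adjusted over the 90 relations, the permutation p of these 4 relations lay between 0.557 and 0.583 for r and between 0.712 and 0.811 for rho. Of the 90 relations, 4 had an unadjusted p under 0.05 for r, where 4.5 would by chance. Beside Msr1 and Marco they were, by the exact permutation test, Cd68 and Colec12 (r = 0.895, p = 0.0250, rho 0.771, p = 0.103) and Marco and Colec12 (r = -0.870, p = 0.0278, rho -0.657, p = 0.175) in filtered air, and Cd36 and Cd163 after ozone (r = -0.738, p = 0.0486, rho -0.886, p = 0.0333). Without the 2 mice farthest from the median of the gene named first, their r was 0.515, -0.978 and -0.660, and Marco and Colec12 had -0.557 without filtered-air mouse 4 alone. For these 3 the adjusted p was 0.557 for r and from 0.712 to 0.811 for rho. Of the 90 relations none had an adjusted p under 0.05, the smallest being 0.125 in the exact permutation test. A lone pair could not have passed 0.05 with 720 pairings, so this does not decide on single pairs.

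Genes most like Msr1 were named by the correlation of deviations from the group means over the 12 mice, among 19632 other genes. They were Pde10a (r = 0.943), a cyclic nucleotide phosphodiesterase, Ifitm2 (0.931), an interferon-induced membrane protein, Gpr65 (0.918), a proton-sensing receptor, Foxp2 (0.916), a forkhead transcription factor, and Ckap4 (0.915), a transmembrane protein of the endoplasmic reticulum. These are the extremes of many correlations and are given without a test. Within filtered air their r with Msr1 lay between 0.950 (Ifitm2) and 0.990 (Foxp2). After ozone it lay between 0.465 (Foxp2) and 0.843 (Gpr65). Foxp2 was at the lowest value shared within a batch in filtered-air mouse 2 and ozone mouse 6. None of the 5 was called for the ozone difference, with values from -0.11 for Foxp2 to 0.15 for Ifitm2. Without filtered-air mouse 4 the correlations lay between 0.783 (Foxp2) and 0.853 (Pde10a). By the same measure Colec12 ranked 135th, with 0.783, and Marco 17th from the bottom, with -0.870. Without filtered-air mouse 4 these were 0.604 for Colec12 and -0.645 for Marco.

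Companion genes of the receptors were read from 4 lists, written with earlier results of these data known. Of 56 genes reported 55 were kept and 3 were called, 2 higher and 1 lower, which is 5.45% against 4.25% of all genes. These counts describe the lists and are not evidence about them.

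No change was detected in the other scavenger receptors: of 13 genes, 12 were kept, 0 were called in limma and 0 had an unadjusted p under 0.05, against 16.7% of all genes, with a median difference of -0.012. The widest differences were those of Ager, the receptor for advanced glycation end products, at -0.13 (SE 0.0903), and Cd14, the lipopolysaccharide co-receptor, at 0.081 (SE 0.119). Both moved with single mice: Ager was at -0.077 without filtered-air mouse 3 and -0.071 without ozone mouse 1. Cd14 was at 0.19 without filtered-air mouse 4, 0.0065 without filtered-air mouse 6, 0.015 without ozone mouse 2 and 0.14 without ozone mouse 5. Mrc1, the mannose receptor, differed by -0.062 (SE 0.0472).

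Among 13 ligands and partners of the receptors, 2 rose and 1 fell, against 4.25% of all genes called, and 4 had an unadjusted p under 0.05, against 16.7%. The median difference was 0.038. Chid1, a chitinase-like protein that binds stabilin-1, rose by 0.27 (SE 0.0656, limma's adjusted p = 0.0305), with ozone values from 0.074 to 0.36 against -0.21 to 0.17. Fyn, a Src-family kinase that acts downstream of Cd36, rose by 0.18 (SE 0.0442, limma's adjusted p = 0.0379). Tlr2, which signals with Cd36 as a co-receptor, fell by 0.26 (SE 0.0593, limma's adjusted p = 0.0225), with ozone values from -0.39 to -0.084 against -0.15 to 0.15. These calls were fragile: among the 12 fits that left out a mouse, Chid1 lost its call in 8, Fyn in 10 and Tlr2 in 4 (without filtered-air mice 1 or 2, or ozone mice 3 or 5). Fyn kept it only without filtered-air mouse 4 or ozone mouse 1. Thbs1, the matricellular ligand of Cd36, differed by -0.59 (SE 0.205) and Sparc, a ligand of stabilin-1, by 0.20 (SE 0.129), neither called. Thbs1 was at -0.37 without filtered-air mouse 4, and Sparc at 0.095 without ozone mouse 6.

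Among 15 genes of lipid handling after uptake, 0 were called in limma and 6 had an unadjusted p under 0.05 (16.7% of all genes had), with a median difference of -0.014. Apoe, the apolipoprotein that macrophages secrete, differed by -0.50 (SE 0.179) and Abca1, the cholesterol efflux transporter, by -0.29 (SE 0.118), neither called. Apoe differed by -0.084 in flow-sort batch 1 and -0.91 in batch 2, and Abca1 was at -0.19 without ozone mouse 2. Fabp4 and Fabp5, which carry fatty acids inside the cell, differed by -0.15 (SE 0.0779) and 0.14 (SE 0.0464), neither called.

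Among 15 transcription factors that are known to act on these genes or in macrophage identity, 0 were called in limma and 5 had an unadjusted p under 0.05 (again against 16.7% of all genes), with a median difference of 0.020. Bach2, a transcriptional repressor, differed by -0.26 (SE 0.104) and Jun, a subunit of AP-1, by 0.19 (SE 0.125). Bach2 was at -0.17 without filtered-air mouse 6, and Jun at 0.082 without filtered-air mouse 4. The lowest adjusted p of the list in limma were 0.0584 for Bach1 and 0.0797 for Nr1h3. These genes differed by -0.18 (SE 0.0485) and 0.15 (SE 0.0449), neither called. Pparg, the lipid-sensing receptor known to induce Cd36, differed by -0.011 (SE 0.0649, 95% interval -0.15 to 0.13). Nfe2l2, which encodes NRF2, a factor known to act on Marco, differed by 0.033 (SE 0.0392), and Spi1, which encodes PU.1, by 0.020 (SE 0.0424).

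**Figure D4:**
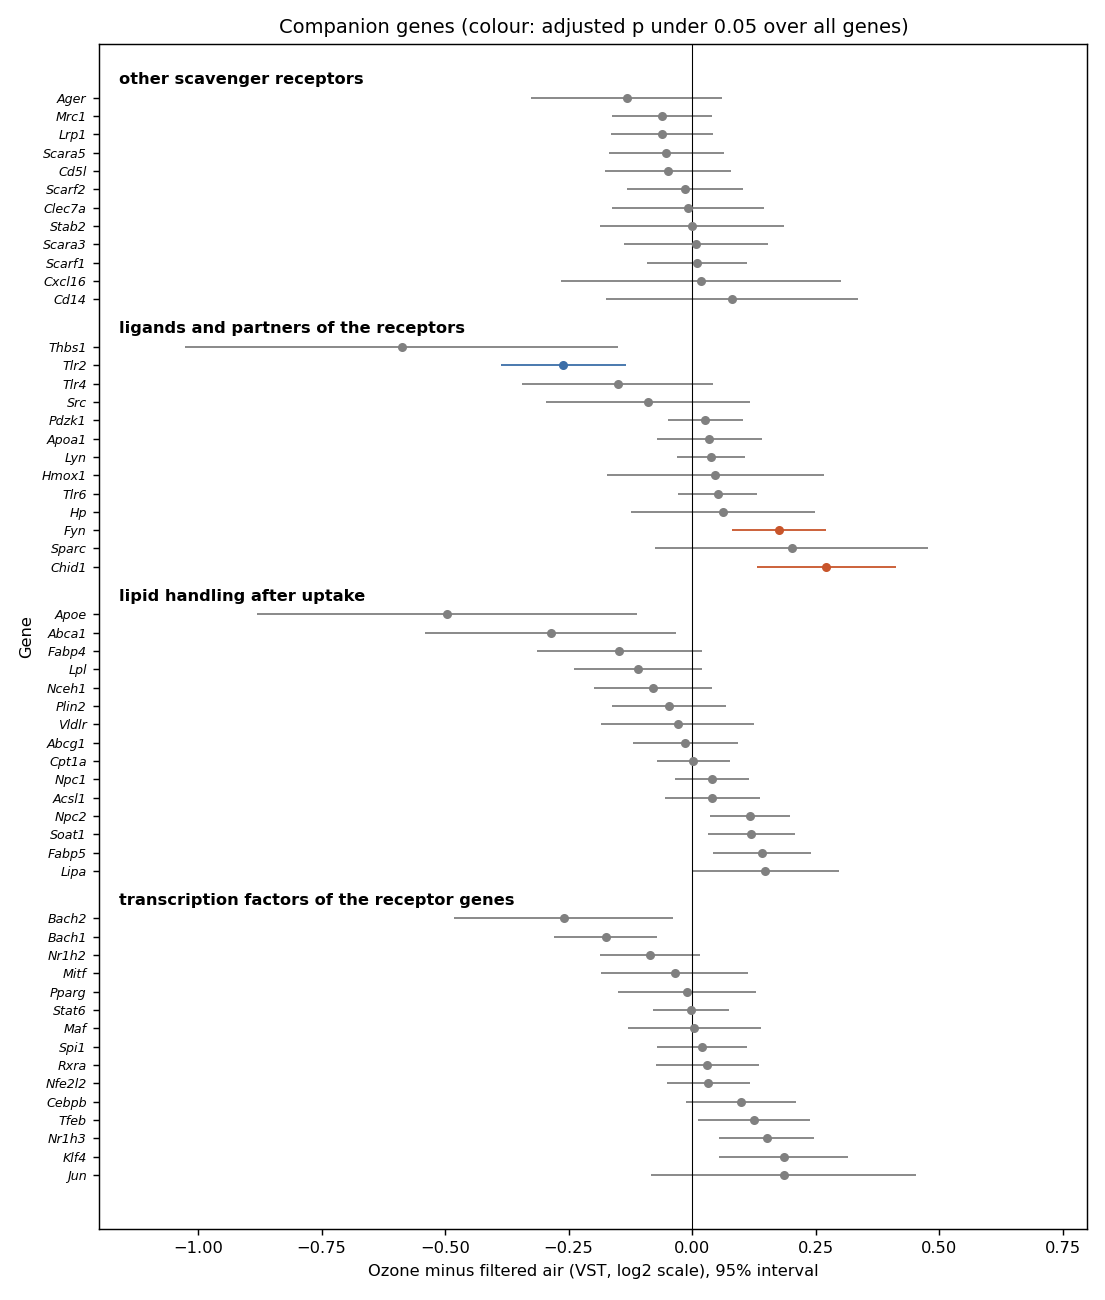
Ozone minus filtered air with 95% intervals (x axis, variance-stabilized log2 scale) for the 55 companion genes kept, by list, with called rises in orange, called falls in blue and genes not called in grey. Tlr2 is the called fall, and Chid1 and Fyn are the called rises.

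Of the 14 alveolar macrophage markers, 4 were called, 2 in each direction, against 4.25% of all genes. In limma 7 had an unadjusted p under 0.05, against 16.7% of all genes, and the median difference was -0.030. Car4, a carbonic anhydrase, rose by 0.32 (SE 0.0836, limma's adjusted p = 0.0460) and Chil3, a chitinase-like protein, by 0.25 (SE 0.0604, limma's adjusted p = 0.0320). Ear1, an eosinophil-associated ribonuclease, fell by 0.28 (SE 0.0705, limma's adjusted p = 0.0358) and Krt79, a keratin, by 0.35 (SE 0.0762, limma's adjusted p = 0.0177). Chil3 and Ear1 have close relatives with which they can share reads. The mean of the 14 markers ranged from -0.091 to 0.075 in filtered air and from -0.12 to 0.098 after ozone, while that of 5 B cell markers ranged from -0.25 to 0.35 and from -0.30 to -0.13. The part of these shifts in the receptor values was not tested.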

How the data were processed

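RNA was measured in flow-sorted alveolar macrophages of 12 mice by paired-end sequencing of 50-base reads. Per the submitters' processing notes, mm10, cutadapt, STAR 2.7.7a, Salmon 1.5.2, DESeq2 1.26.0, R 3.6.0 and limma 3.42.2 were used; their roles and the annotation are not given in the sources used here. The deposited values are on a log2 scale; that the authors stabilized the variance and corrected for batch is known from the name of the file. The filtered-air mean and the difference between batch means are 0 in every gene, so the correction used up a degree of freedom. All 12 columns matched a sample title.

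Differences were fitted across all genes in R 4.3.3 by limma 3.58.1; the model held the flow-sort batch, with no variance trend and with Benjamini-Hochberg adjustment at 0.05. Genes were kept where at least 6 mice lay above the lowest value shared by mice of a batch (tolerance 1e-07), which left 19633. Correlations within a group were tested with exact permutation tests over 720 pairings, which were not kept within the flow-sort batches. The fit was tested on simulated data. The receptor genes, the gene lists and the rule for named genes were chosen with earlier results of these data known. The rule names the 10 receptors, every called companion gene and the 2 widest others per list, and the 5 genes most like Msr1. Mrc1, Fabp4, Fabp5, Pparg, Nfe2l2, Spi1, Bach1, Nr1h3 and the called alveolar markers were added after their values were seen. Alternatives covered filters, covariates, normalization, variance models, batches, a replicate block and leaving out each mouse. Some companion genes are not reported here, and the counts of their lists leave them out.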

Additional observations from a re-analysis of the deposited data

Results flagged for a closer look

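Of 42 gene and group combinations examined (10 receptor and 11 companion genes), 2 had a mouse that stood apart by Dixon's ratio at the 95% level, where chance gives about 1 in 20, or 2.1. Cd163 in ozone mouse 5 was 0.34, with the next ozone mouse at 0.0045 (ratio 0.667); without this mouse the Cd163 difference was -0.086 and was not called. Fyn in filtered-air mouse 4 was 0.14, with the next at -0.00060 (ratio 0.699), and Fyn differed by 0.21 without it.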

How the results depend on the processing

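The total of 834 called genes was 171 after quantile normalization, 90 in batch 1 alone and 0 in batch 2 alone (limma, 3 mice against 3), and 538 (without filtered-air mouse 1) to 751 when a mouse was left out. The 2 called receptors were 1 with a variance trend and 0 in batch 2 alone; leaving out a mouse gave 2 to 4, with 4 without filtered-air mouse 4. Msr1 lost its call with the variance trend (1.00) and in batch 2 alone (0.91), and Cd36 in batch 2 alone (-0.42). Both kept it in the other settings, with Msr1 from 0.91 to 1.16 and Cd36 from -0.49 to -0.43 when a mouse was left out. Marco gained a call with RNA integrity as a covariate (0.49) and ranged from 0.37 to 0.70, Colec12 gained a call with the replicate block (0.43) and ranged from 0.33 to 0.57, and Cd68 ranged from 0.13 to 0.19. Uncalled genes near 0 changed sign: Cd163 after quantile normalization (0.0020) and in batch 1 (0.096), Olr1 (0.075) and Stab1 (0.038) in batch 1, and Cd14 in batch 2 (-0.0060). Jun, also uncalled, was at 0.19 and changed sign in batch 1 (-0.023). Without a mouse, Cd163 ranged from -0.086 to 0.069, Olr1 from -0.058 to 0.014, Stab1 from -0.11 to 0.050 and Scarb2 from -0.010 to 0.029. The 3 called companion genes were 5 without the batch covariate, 0 after quantile normalization and in each batch alone, and 0 (without ozone mouse 3 or ozone mouse 5) to 3 when a mouse was left out. The batches hold fewer mice, and the variance trend was fitted on means that follow the ozone difference. In the other cases the cause was not tested.

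Replicate numbers occur in both groups but belong to different animals. Same-numbered mice had correlated deviations from their group means of -0.0026 to 0.28, and 4 of 6 exceeded 0.1. Pairing was taken only where all 6 did, so the mice were not treated as paired. Under the replicate block the count was 853, sharing 686 genes with the 834; Fyn lost its call, and the calls of Msr1 and Cd36 stayed. Leaving out any filtered-air mouse kept the r of Msr1 and Marco between -0.996 and -0.947, while that of Msr1 and Colec12 fell to 0.266 without filtered-air mouse 4, alternatives chosen after seeing the data. Unknown read totals and 6 mice per group limit what differences can be seen.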

Other observations

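Apoe differed by -0.084 in flow-sort batch 1 and by -0.91 in batch 2. In limma's interaction test its unadjusted p was 0.0153, and the adjusted p over all genes was 1.00, so it did not pass the correction.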
